A study of Rattus norvegicus with 6 samples.

Results

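Aldh1l1 and Aldh1l2, the cytosolic and the mitochondrial 10-formyltetrahydrofolate dehydrogenase, were followed in primary rat OLs cultured on flat hydrogels and on micropillars. They are 2 of the 32552 genes in the count tables, identified as ENSRNOG00000047023 and ENSRNOG00000008586, and both are among the 13163 genes with enough counts to be tested. They were chosen with their levels on flat hydrogels and micropillars already known, so the levels, the differences and the ratio of the genes are given as a description, without a test.

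The cells were O4+ cells selected with magnetic beads from the cortex of wild-type Sprague Dawley rats at postnatal day 7, named oligodendrocyte progenitor cells in the sample labels. After 10 days in culture on hydrogels of 50 kPa, RNA was sequenced from 3 flat samples and from 3 samples on micropillars with a diameter of 5 µm, a height of 22 µm and a spacing of 10 µm. Flat and micropillar libraries had the same cell source, stiffness and time in culture. The RNA was from whole cultures, in which fewer cells of a type and less RNA per cell cannot be told apart, and no source used here says whether the libraries of a group came from separate cultures or animals, so the p-values below measure the spread between these libraries, which may be technical.

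Both enzymes oxidize the formyl group carried by 10-formyltetrahydrofolate to carbon dioxide, with production of NADPH and return of tetrahydrofolate to the folate cycle. ALDH1L1 does this in the cytosol, where it removes one-carbon units that purine synthesis could use, and ALDH1L2 does it in the mitochondrial matrix. In the brain, Aldh1l1 is widely used as a marker of astrocytes, and it is also found in radial glia.

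In the Rnor6.0 annotation of the count tables, Aldh1l1 spans positions 123516788 to 123557501 of chromosome 4 on the minus strand, 40714 bases with an exon length of 3007 bases. Aldh1l2 spans positions 26375866 to 26425108 of chromosome 7 on the plus strand, 49243 bases with an exon length of 2769 bases. No other annotated gene overlaps either span, and the nearest ones lie 6571 bases from Aldh1l1 and 2612 bases from Aldh1l2. The exon length of Aldh1l2 is a multiple of 3, as for a coding sequence without UTRs, but other gene models can have such a length too. Reads from its UTRs may be missing from its counts, which was not examined. The sequence just upstream of Aldh1l1 is shown because its transcript level is one of the quantities compared, and it comes from RefSeq on the GRCr8 assembly, where the gene lies on the plus strand (chr4:124616970-124617219, the 250 bases before the start of the gene, written 5′ to 3′). The capitals mark every match to CCAAT (read as ATTGG on the other strand) and to GGGCGG (read as CCGCCC on the other strand).
Aldh1l1 upstream: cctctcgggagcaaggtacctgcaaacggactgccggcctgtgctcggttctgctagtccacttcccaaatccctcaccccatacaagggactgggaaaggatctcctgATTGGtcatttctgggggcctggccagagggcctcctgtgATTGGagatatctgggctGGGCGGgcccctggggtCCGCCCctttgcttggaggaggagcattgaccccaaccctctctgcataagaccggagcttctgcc
CCAAT, the core of the motif of the factor NF-Y, has 2 matches on the minus strand, 141 and 101 bases before the start, and 34.0% of the 33469 rat promoters of the same length hold at least 1 match on either strand. GGGCGG, the GC box bound by SP1, has 2 matches, 83 bases before the start on the plus strand and 66 bases before it on the minus strand, and 30.5% of the promoters hold 1. ACGTG, the core of the hypoxia response element, TGATGNAA, the ATF4 motif, and TGACNNNGC, the antioxidant response element, were also searched on both strands and have no match in this window. They were found in 16.6%, 3.40% and 10.1% of the promoters. These letters describe the window, and binding was not measured. The promoter set held no entry for Aldh1l2, so its upstream sequence was not searched for any of these motifs.

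Every level below is a CPM value, in which a gene's counts are divided by the size of its library, as scaled by TMM in edgeR, and brought to a common total. The library totals were between 10645621 and 15624525 counts. Flat libraries varied more than micropillar libraries: the median SD of log2 CPM over all genes was 0.23 on flat hydrogels and 0.11 on micropillars. Micropillar replicates 1 and 2 lay closest together, with a mean chi-square per gene of 1.90, against 7.14 to 7.62 for the pairs with micropillar replicate 3 and 25.9 to 41.4 between flat libraries. Calls are by the quasi-likelihood test of edgeR with an adjusted p (Benjamini-Hochberg, over all genes tested) under 0.05, which called 26.7% of all genes, 15.3% as higher on micropillars and 11.4% as lower. The 7 markers of the OL lineage in the study's panel of cell types summed to 44608 to 76370 CPM in the flat libraries and 83964 to 90347 CPM in the micropillar libraries. Of these markers, 4 were called higher (Mbp, Cnp, Olig2 and Cspg4) and none lower, but only 2 were called when flat replicate 3 or a single micropillar replicate, whichever it was, was left out. Olig2 (log2 fold change 0.36, adjusted p = 0.036 from edgeR) was not called in 7 of 13 alternatives, among them library totals (adjusted p = 0.095) and the replicate number as a block (adjusted p = 0.075). Of 10 markers of progenitors and neurons, 1 was called higher (Tubb3) and 2 lower (Eomes and Map2), and 5 in all were called without flat replicate 1. Eomes rests on 18 to 28 counts per flat library and 5 to 7 per micropillar library. With a filter of 10 counts in every library, which Eomes did not pass, 2 of these markers were called.

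Aldh1l1 was present at a low level in every library and was about 2.10-fold higher on micropillars, with replicates that differed widely in both groups. On flat hydrogels, 52, 106 and 47 counts gave 4.02, 7.03 and 4.22 CPM in replicates 1 to 3. On micropillars, 192, 161 and 115 counts gave 13.0, 11.6 and 7.66 CPM. The groups did not overlap, but the lowest micropillar library, replicate 3, was only 1.09 times the highest flat library, replicate 2. The counting intervals of these libraries (95%, exact Poisson) overlapped, with 5.76 to 8.51 CPM in flat replicate 2 and 6.32 to 9.20 CPM in micropillar replicate 3. Such intervals cover counting error only. The groups did not overlap, with micropillars higher, for 24.3% of all genes tested. The flat libraries averaged 5.09 ± 1.68 CPM and the micropillar libraries 10.8 ± 2.79 CPM (SD, n = 3 each), and the fitted log2 fold change was 1.07 with a standard error of 0.28. It was between 0.93, without micropillar replicate 1, and 1.39, without flat replicate 2.

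Aldh1l2 was also present in every library and was 3.98-fold higher on micropillars, with replicates close to each other. On flat hydrogels, 129, 133 and 81 counts gave 9.98, 8.82 and 7.27 CPM in replicates 1 to 3. On micropillars, 535, 492 and 486 counts gave 36.4, 35.5 and 32.4 CPM. All 3 micropillar libraries stood well above the flat ones, and the lowest of them was 3.24 times the highest flat library. The upper counting bound of the highest flat library, replicate 1, was 11.9 CPM, and the lower bound of the lowest micropillar library, replicate 3, was 29.6 CPM. The flat libraries averaged 8.69 ± 1.36 CPM and the micropillar libraries 34.7 ± 2.10 CPM (SD, n = 3 each), and the fitted log2 fold change was 1.99 with a standard error of 0.15. Leaving out 1 library at a time kept it between 1.89, without flat replicate 3, and 2.13, without flat replicate 1.

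**Figure D1:**
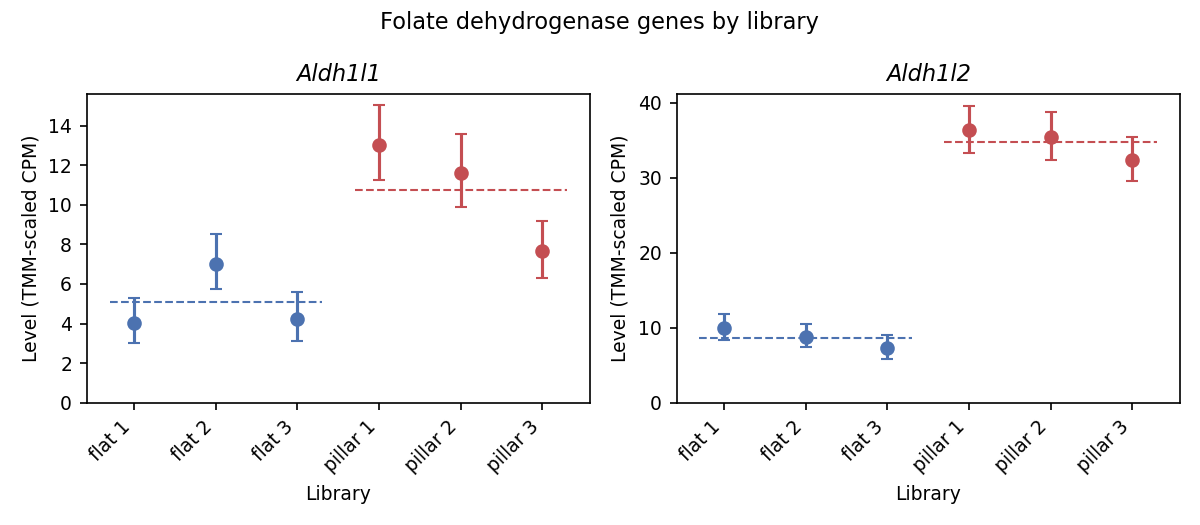
Level of Aldh1l1 (left) and Aldh1l2 (right) in each library, in TMM-scaled CPM on separate linear axes, with flat libraries in blue and micropillar libraries in red. Points are libraries, bars are exact Poisson 95% intervals for counting error, and dashed lines are group means. Flat replicate 2 (7.03 CPM) and micropillar replicate 3 (7.66 CPM) nearly meet for Aldh1l1, while the micropillar libraries of Aldh1l2 (32.4 to 36.4 CPM) lie far above its flat libraries (7.27 to 9.98 CPM).

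The spread within groups thus differed between the genes. The SD of Aldh1l1 was 33.1% of its mean on flat hydrogels and 25.9% on micropillars, and that of Aldh1l2 was 15.7% and 6.03%. Flat replicate 2 had 1.71 times the Aldh1l1 level of the mean of the other flat libraries but 1.02 times their Aldh1l2 level. Micropillar replicate 3 had 0.621 times the Aldh1l1 level of the mean of micropillar replicates 1 and 2, and 0.901 times their Aldh1l2 level. The authors' rlog values, which are log2 values with the differences of low genes shrunk toward 0, also did not overlap between groups for either gene. The rlog values of Aldh1l1 were 6.37, 6.65 and 6.40 on flat hydrogels and 7.03, 6.95 and 6.69 on micropillars. The rlog values of Aldh1l2 were 7.57, 7.50 and 7.40 on flat hydrogels and 8.53, 8.50 and 8.43 on micropillars. The difference between group means on that scale was 0.42 for Aldh1l1 and 1.00 for Aldh1l2.

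Among the genes tested, 460 had a larger log2 fold change than Aldh1l1 and 58 a larger one than Aldh1l2. By mean CPM, Aldh1l1 ranked 9195 and Aldh1l2 6555 of the 13163 genes. Per length, as TPM (transcript abundance scaled by exon length), Aldh1l1 was at 3.34 ± 1.24 on flat hydrogels and 7.02 ± 1.82 on micropillars (SD, n = 3 each). Aldh1l2 was at 6.15 ± 0.94 TPM and 24.6 ± 1.52 TPM (SD, n = 3 each). In terms of TPM, Aldh1l1 lay between percentiles 16.5 and 22.2 of the genes tested in the flat libraries and between 24.9 and 33.5 in the micropillar libraries. Aldh1l2 lay between 25.3 and 31.3 in the flat libraries and between 56.3 and 58.9 in the micropillar libraries, there above the middle of the genes tested.

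**Figure D2:**
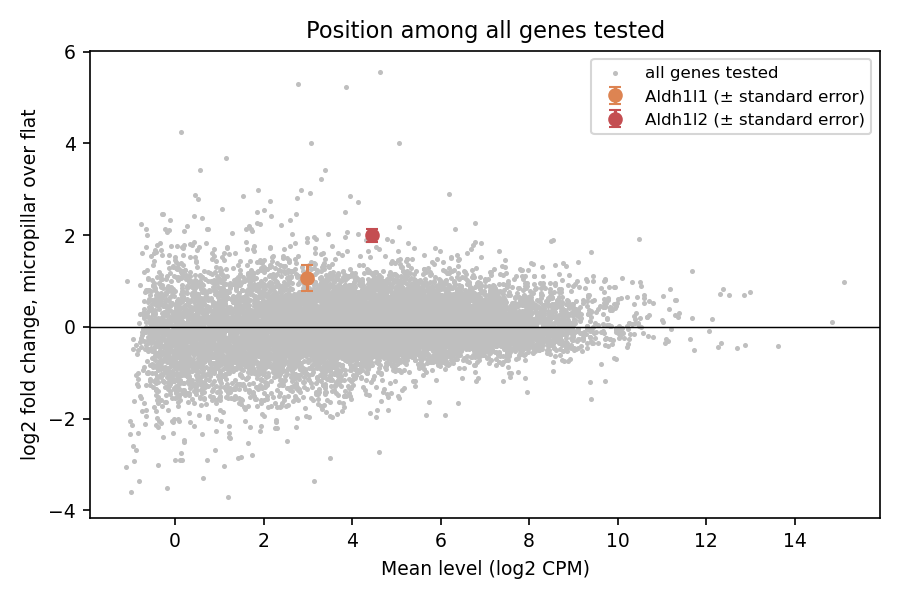
Log2 fold change of micropillars over flat hydrogels against mean level (log2 CPM) for the 13163 genes tested, in gray, with Aldh1l1 in orange and Aldh1l2 in red, each with its standard error. Over all levels, 460 genes have a larger log2 fold change than Aldh1l1 (1.07) and 58 a larger one than Aldh1l2 (1.99).

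Per kilobase of exon, Aldh1l2 counts exceeded Aldh1l1 counts in all 6 libraries, and by more on micropillars. The ratio of Aldh1l2 to Aldh1l1 was 2.69, 1.36 and 1.87 in flat replicates 1 to 3. It was 3.03, 3.32 and 4.59 in micropillar replicates 1 to 3. The ratios did not overlap between groups, but the highest flat ratio, in replicate 1, had an interval for counting error (95%, from the exact binomial interval of the share) of 1.94 to 3.79. This interval overlapped those of micropillar replicate 1, 2.56 to 3.59, micropillar replicate 2, 2.77 to 3.99, and, narrowly, micropillar replicate 3, 3.74 to 5.67. The mean ratio was 1.98 ± 0.67 (SD, n = 3) on flat hydrogels and 3.64 ± 0.83 (SD, n = 3) on micropillars. The mean log2 ratio was higher by 0.92 on micropillars, a factor of 1.89. The fitted log2 fold change of Aldh1l2 exceeded that of Aldh1l1 by 0.93, and by between 0.62, without flat replicate 2, and 1.18, without flat replicate 1.

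As a share of the counts of both genes, Aldh1l2 made up 71.3%, 55.6% and 63.3% in flat replicates 1 to 3. It made up 73.6%, 75.3% and 80.9% in micropillar replicates 1 to 3. The exact Clopper-Pearson intervals (95%) of the extremes within each group were 49.1% to 62.1% for flat replicate 2, 64.1% to 77.7% for flat replicate 1, 70.2% to 76.8% for micropillar replicate 1 and 77.5% to 83.9% for micropillar replicate 3. The libraries with the extreme shares were thus flat replicate 2, where Aldh1l1 was high, and micropillar replicate 3, where Aldh1l1 was low. The mean share was 63.4% ± 7.81 (SD, n = 3) on flat hydrogels and 76.6% ± 3.80 (SD, n = 3) on micropillars. Summed, the genes reached 13.8 ± 2.20 CPM in flat libraries and 45.5 ± 4.88 CPM in micropillar libraries (SD, n = 3 each). Of that difference between means, 5.68 CPM was in Aldh1l1 and 26.1 CPM in Aldh1l2.

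**Figure D3:**
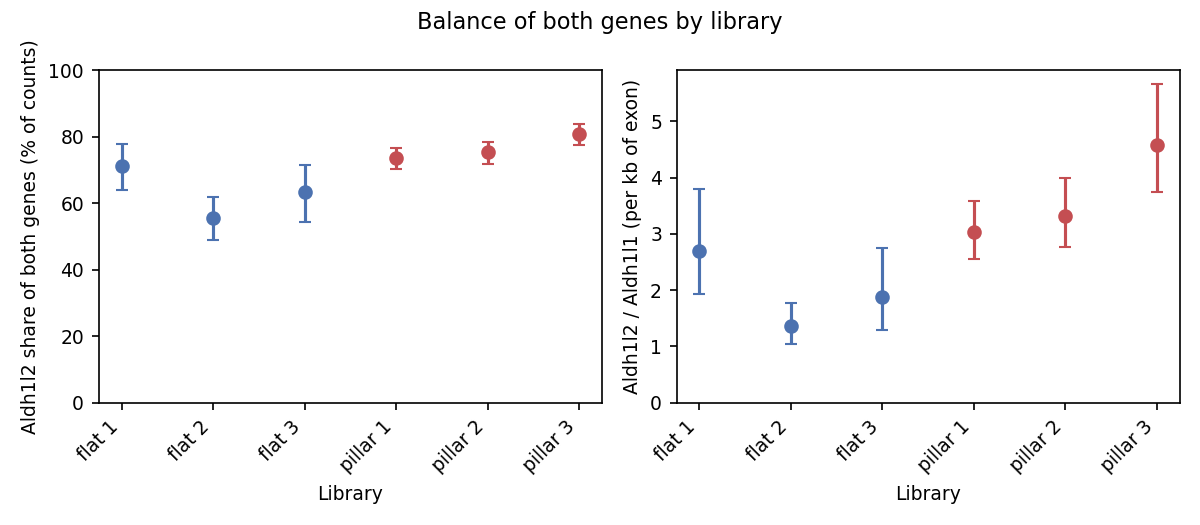
Aldh1l2 share of the counts of both genes in percent (left) and ratio of Aldh1l2 to Aldh1l1 per kilobase of exon (right) in each library, flat in blue and micropillar in red, with 95% intervals for counting error as bars. The shares run from 55.6% to 71.3% on flat hydrogels and from 73.6% to 80.9% on micropillars, and the bars of flat replicate 1 overlap those of the micropillar libraries.

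Because Aldh1l1 is used as an astrocyte marker, the other 7 astrocyte markers of the study's panel were read beside it and tested with edgeR as above. Of the 7 markers, 2 were called higher, 1 lower and 4 in neither direction, with a median log2 fold change of 0.56 against -0.02 over all genes tested. Of all genes tested, 15.3% were called higher and 11.4% lower. Gfap, an astrocyte intermediate filament, was at 798, 1336 and 779 CPM in flat replicates 1 to 3 and at 2075, 2042 and 1649 CPM in the micropillar replicates (log2 fold change 0.98, standard error 0.21, adjusted p = 0.0091). Aqp4, the water channel of astrocyte endfeet, also rose (log2 fold change 0.74, adjusted p = 0.0061). Slc1a2, a glutamate transporter, fell (log2 fold change -0.77, adjusted p = 0.0092).

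The matrix glycoprotein gene Tnc had a log2 fold change of 0.69 (adjusted p = 0.085), the connexin gene Gja1 one of 0.56 (adjusted p = 0.11), the calcium-binding protein gene S100b one of 0.29 (adjusted p = 0.067) and the glutamate transporter gene Slc1a3 one of -0.22 (adjusted p = 0.49), all by edgeR with Benjamini-Hochberg adjustment. Without flat replicate 2, 6 of the 7 markers were called: Tnc (adjusted p = 0.0046), Gja1 (0.0037) and S100b (0.036) were then called higher as well, by the same edgeR test. That fit also called more genes in general, 2361 higher and 1878 lower, against 2014 and 1500 with all libraries. The summed level of the 7 markers ran from 1287 to 2099 CPM in the flat libraries and from 2248 to 2842 CPM in the micropillar libraries, and no marker was at 0. Most of each sum was Gfap, with means of 971 CPM in the flat and 1922 CPM in the micropillar libraries. The sums therefore say little about the other markers. Within the flat group, the library with the most Aldh1l1, replicate 2, also had the most Gfap, Tnc, Gja1, Slc1a3, Slc1a2 and S100b, at 1.69, 2.00, 1.86, 1.77, 1.31 and 1.11 times the mean of the others. Aqp4 stood at 1.02 times there and was highest in flat replicate 3. Within the micropillar group, the library with the least Aldh1l1, replicate 3, had 0.801 times the Gfap, 0.629 times the Tnc, 0.708 times the Aqp4, 0.775 times the Gja1, 0.836 times the Slc1a3, 0.920 times the S100b and 0.989 times the Slc1a2 of the others. The part of astrocyte RNA in the level of Aldh1l1 was not tested.

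The likeness of library profiles was measured as the root mean square difference of log2(CPM + 0.5) over the 6 libraries, after each gene was centred on its own mean, so that it describes these libraries and the contrast by which the genes were chosen. For Aldh1l1 the nearest genes with a symbol were Gfap at 0.12, Tnc at 0.18, Sptbn4 at 0.21, Gja1 at 0.26 and Fbln2 at 0.27, against a median of 0.64 over all other genes. Gfap ranked 3rd of the 13162 other genes, behind ENSRNOG00000038184 at 0.064 and ENSRNOG00000003365 at 0.11. Tnc ranked 29th, Sptbn4 77th, Gja1 183rd and Fbln2 227th, so many genes without a symbol at hand were nearer than these. For Aldh1l2 the nearest genes with a symbol were Crlf2 at 0.12, Rasgef1c at 0.15, Vegfa at 0.16, Rcn3 at 0.17 and Nkx6-2 at 0.18, against a median of 1.01. Symbols were at hand for only 77 genes, so most genes could not be named here. These genes come from the study's cell type panel, its strongly changed genes, and its lineage and cytoskeleton genes. All named neighbours of Aldh1l2 are among the strongly changed genes of these samples, so their nearness is not independent evidence. The cell type panel holds 7 astrocyte markers besides Aldh1l1, so astrocyte markers were more likely to be named. The nearness of Gfap, Tnc and Gja1 to Aldh1l1 is therefore not independent evidence either. The difference between the profiles of Aldh1l1 and Aldh1l2 was 0.56, which ranked Aldh1l2 4499th among the genes nearest to Aldh1l1 and Aldh1l1 650th among those nearest to Aldh1l2.

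Aldh1l2 was also set beside 7 other genes, of which the study names 3 with it as genes of metabolism (Pfkl, Cox4i2 and Mgarp) and 4 were added here from the study's list of strongly changed genes (Slc16a3, Pkm, Ddit4 and Vegfa). Ckm, which the study also names there, is missing because no identifier was paired with its symbol. All 7 were called higher by edgeR with Benjamini-Hochberg adjustment, as were 15.3% of all genes tested. With a filter of 10 counts in every library, 5 were called, because Mgarp and Cox4i2 did not pass it. The median log2 fold change of the 7 genes was 2.90, against -0.02 over all genes tested. These 7 were chosen on these samples, by the study or with its results known, so their direction is not independent evidence. Their log2 fold changes placed Aldh1l2 (1.99) above Pkm, a pyruvate kinase (1.64, adjusted p = 0.0011), and Ddit4, a stress-induced inhibitor of mTORC1 (1.69, adjusted p = 0.00046). It lay below Vegfa, a hypoxia-inducible growth factor (2.13, adjusted p = 0.00025), and Pfkl, a phosphofructokinase (2.90, adjusted p = 0.00025). Slc16a3, a lactate exporter, Mgarp, a mitochondrial protein, and Cox4i2, a subunit of cytochrome c oxidase, differed most, with log2 fold changes of 5.56, 5.29 and 5.23, but their flat levels rest on 3 to 15 counts per library. Micropillar replicate 3 had between 0.380 times (Slc16a3) and 0.726 times (Ddit4) the level of micropillar replicates 1 and 2 for these 7 genes, where Aldh1l2 stood at 0.901 times. Aldh1l1, at 0.621 times, was within that range. The other genes of folate, serine and NADPH metabolism were not analysed here, because their identifiers were not paired with symbols in the sources used here.

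**Figure D4:**
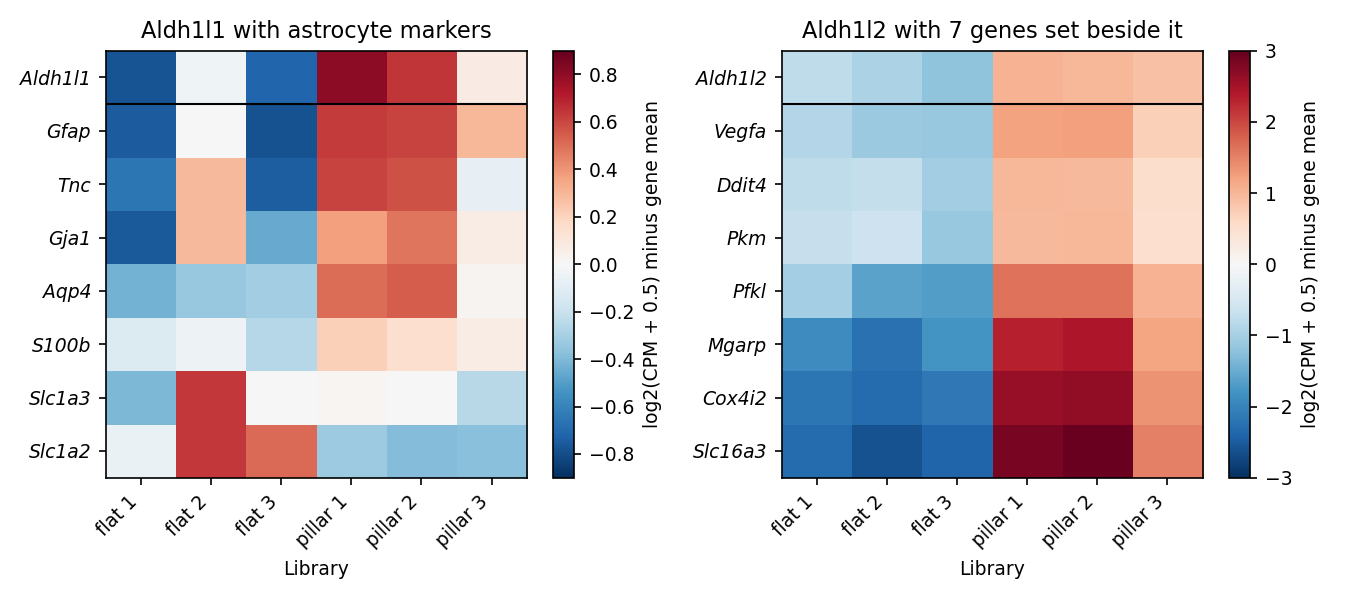
Library profiles of Aldh1l1 with 7 astrocyte markers (left) and of Aldh1l2 with the 7 genes set beside it (right), as log2(CPM + 0.5) minus the gene's mean over the 6 libraries, on color scales that differ between the panels. Flat replicate 2 is near 0 for Aldh1l1 and Gfap and above 0 for Tnc and Gja1, and micropillar replicate 3 is paler than the other micropillar libraries for those 7 genes but hardly so for Aldh1l2.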

How the data were processed

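RNA from 3 flat and 3 micropillar libraries was poly(A)-selected and primed with random hexamers. The authors trimmed the reads, mapped them to Rnor6.0 with STAR 2.5.2b and counted them per Ensembl gene with featureCounts (Subread 1.5.2), and the deposited raw counts were used here as they stand. The deposited rlog table holds log2 values that the authors computed with DESeq2. The sources used here do not say whether counting used the strand or whether cultures were pooled. The deposited gene lengths are merged exon lengths in bases.

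Differences were fitted across 13163 genes in R 4.3.3 by the quasi-likelihood functions glmQLFit and glmQLFTest of edgeR 4.0.16, after filterByExpr and TMM and without a block, and p-values were adjusted by the Benjamini-Hochberg method at a threshold of 0.05. The standard error is the log2 fold change divided by the square root of F. Totals of 10645621 to 15624525 counts per library put 47 to 192 counts behind an Aldh1l1 level and 81 to 535 behind an Aldh1l2 level. The fit was tested on simulated data. No column of another sample was found.

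The tables pair no identifier with a symbol. Symbols came from the study's source data, through the values beside them: each of 83 entries matched 1 identifier, 77 genes in all. Named are the members, the study's cell type panel, the genes it names with Aldh1l2 as metabolic (except Ckm, which had no identifier), 4 more of its strongly changed genes (Slc16a3, Pkm, Ddit4 and Vegfa), and for each member the 5 nearest profiles with a symbol and 2 without one. The members and lists were chosen with earlier results of these data known. Lists with few identifiers were not counted: folate cycle (0 of 29), serine and glycine supply (0 of 6), NADPH sources (0 of 12) and amino acid response (1 of 17, Ddit4). Alternatives were library totals or DESeq2 size factors in edgeR, DESeq2 1.42.0, other filters on low counts, the replicate number as a block, micropillar replicates 1 and 2 summed, and each library left out in turn.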

Additional observations from a re-analysis of the deposited data

How the results depend on the processing

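Under 13 alternatives the log2 fold change was between 0.93 and 1.39 for Aldh1l1 and between 1.87 and 2.13 for Aldh1l2, and both, as well as the change of their log2 ratio, moved by less than the SD of the log2 values of the replicates, pooled over both groups. The move of Aldh1l2 to 2.13 was larger than the SD of its micropillar replicates alone, 0.09. The 1500 genes called lower became 2448 with library totals, which shifted the median log2 fold change over the genes tested to -0.15. With micropillar replicates 1 and 2 summed, 996 genes were called higher, 465 lower and 2 OL-lineage markers. The astrocyte markers called went from 3 to 5 without the filter on low counts. Leaving out 1 library at a time gave 941 to 2632 genes called higher and 417 to 1990 lower, with the fewest of both without micropillar replicate 2 (1041 and 443 without micropillar replicate 1), and 835 called lower without flat replicate 3 and 821 without micropillar replicate 3. It also gave 3 to 6 astrocyte markers, 2 to 6 OL-lineage markers and 3 to 5 progenitor and neuronal markers. The log2 fold change of Slc1a3 lay between -0.40, without flat replicate 1, and 0.11, without flat replicate 2 (adjusted p = 0.56 from edgeR). The causes were not tested.

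No pairing of libraries by replicate number was seen (correlations of deviations across genes 0.07, -0.08 and 0.00). Of the flat libraries, only replicate 1 correlated best with its own number. With 3 libraries per group this check can miss a shared origin, so pairing is not excluded. With the replicate number as a block, 2005 genes were called higher and 1310 lower, 5 astrocyte markers were called, and the log2 fold changes were 1.09 for Aldh1l1 and 2.00 for Aldh1l2. The counts of Aldh1l1, 47 to 192 per library, limit the precision of its level and of the ratio.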
